A study of Zonotrichia albicollis with 38 samples.

Results

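The difference between hypothalamus (HYP) and medial amygdala (MeA) of the same bird was set against plumage morph in male white-throated sparrows (Zonotrichia albicollis). For each of 19 birds the log2 level of each gene in MeA was subtracted from its log2 level in HYP, and these differences were compared between 10 white-striped (WS) and 9 tan-striped (TS) birds. All 38 libraries of the series entered the comparison, 1 per bird and region, which made 20 WS and 18 TS libraries. WS birds carry ZAL2m, a rearranged copy of chromosome ZAL2, beside a standard copy, and TS birds carry 2 standard copies. All birds were free-living males, caught on the day following a staged intrusion on their territory in May or June, so no group was unchallenged. Each library came from 4 pooled punches of frozen brain. HYP punches took in several nuclei, from the caudal medial preoptic area to the ventromedial hypothalamus, and MeA made up most but not all of the tissue in the MeA punches. Age class differed with morph: the WS group held 2 second-year (SY) and 8 older (ASY) birds, and the TS group held 7 SY and 2 ASY birds. The stage label read E in 8 of 10 WS and 6 of 9 TS birds, and the labels do not spell out its letters.

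The rearrangement on ZAL2m holds back recombination, so a block of linked genes is inherited together, and WS birds are as a rule the more aggressive morph and TS birds the more parental. The hypothalamus and the medial amygdala both belong to the network of sex steroid sensitive regions that shapes social behaviour in vertebrates. A gene that differs between the morphs by the same factor in both regions shows no difference in its regional contrast. A gene whose contrast differs between the morphs has a morph difference that depends on the region, which is what this comparison asks.

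The counts in a library summed to 7150476 to 12441525 in HYP of WS, 8653109 to 12394806 in HYP of TS, 7342059 to 14482856 in MeA of WS and 8361042 to 12442047 in MeA of TS. The regions separated fully on FEZF1, ISL1 and CPLX3, which were picked from the largest regional contrasts in these same libraries. Their separation follows from that choice and is not an independent check of the punches. FEZF1 and ISL1, transcription factors of the developing and adult hypothalamus, lay at 41.7 to 93.98 and 60.9 to 112.5 counts scaled to a common library size (CPM) in HYP, against 0 to 0.367 and 0 to 0.354 CPM in MeA. CPLX3, a complexin of transmitter release, lay at 0 to 0.744 CPM in HYP against 71.1 to 229.0 CPM in MeA. Both libraries of a bird resembled each other: their deviations from the group means correlated over 12245 genes with r of 0.225 to 0.413, above the highest r of 0.138 between different birds, and 19 of 19 birds matched their own other library best. In bulk tissue, fewer cells of a type and less RNA per cell cannot be told apart.

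Most genes differed between the regions in each morph. In WS birds 9037 of 12245 genes passed at an adjusted p under 0.05 (73.8%), 4582 of them higher in HYP (37.4%) and 4455 lower (36.4%). In TS birds 8834 genes passed (72.1%), with 4540 higher in HYP (37.1%) and 4294 lower (35.1%). These calls come from edgeR's quasi-likelihood test with the bird as a block and Benjamini-Hochberg adjustment over the 12245 genes. Called in both morphs with the same direction were 8028 genes, which is 88.8% of the WS calls and 90.9% of the TS calls, and 1918 of them differed more than 2-fold in each morph. Across genes, which are not independent replicates, the fitted log2 contrast in WS followed that in TS with a Pearson r of 0.979 and a Spearman rho of 0.959. Among the 8028 shared genes the contrast was the larger in WS for 4458 (55.5%). Over all 8028, the size of the contrast in WS minus that in TS had a median of 0.02 on the log2 scale. Per bird, the median absolute difference over all genes was 0.345 to 0.389 (median 0.361) in the 10 WS birds and 0.328 to 0.361 (median 0.353) in the 9 TS birds, ranges that overlap.

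**Figure D1:**
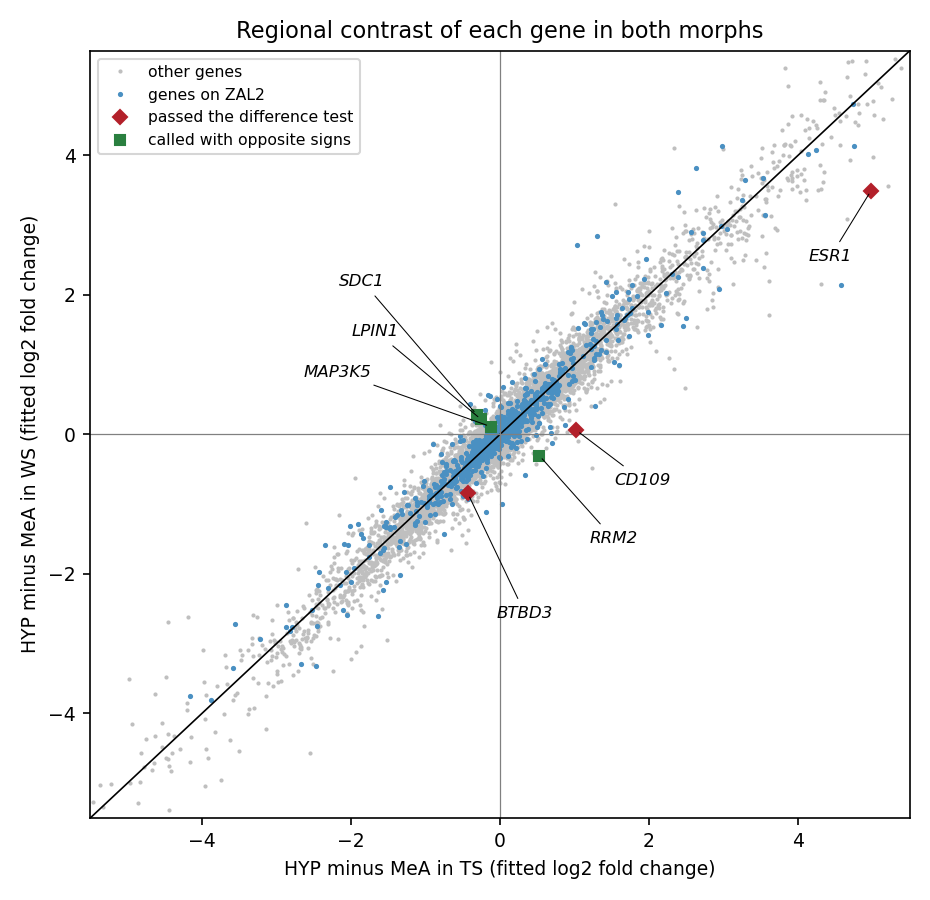
Fitted log2 fold change between HYP and MeA in WS birds (vertical axis) against that in TS birds (horizontal axis), 1 point per gene, with the line of equal contrast drawn. Points follow the line (r 0.979 over 12245 genes, of which 76 lie beyond the axes and are not drawn). BTBD3, CD109 and ESR1, which passed the test of the difference, and LPIN1, MAP3K5, SDC1 and RRM2, which were called with opposite signs in the morphs, lie off it.

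The difference of the regional contrasts (WS minus TS) passed for 3 of 12245 genes (0.0245%): BTBD3, CD109 and ESR1. All of them lie on ZAL2. Of the 12245 genes tested, 889 were placed on ZAL2 and 1368 could not be placed. For all 3 the difference was negative, that is, HYP stood lower relative to MeA in WS birds than in TS birds. At an unadjusted p under 0.05 there were 1287 genes (10.5%), 684 with a positive and 603 with a negative difference, and the median difference over all genes was −0.004 on the log2 scale. The standard error (SE) of a gene's difference had a median of 0.0928. The 95% interval of the difference lay within a 1.5-fold change for 9660 genes (78.9%) and within 2-fold for 11277 (92.1%). For those genes a larger dependence of the regional contrast on morph lies outside the interval, and for the others these 19 birds did not bound it so closely.

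BTBD3 encodes a BTB domain protein known from mammalian cortex to steer dendrites of neurons toward active axon terminals. Its level in HYP was 182.6 to 222.4 CPM (median 200.4) in WS birds and 184.9 to 214.5 CPM (median 200.5) in TS birds. In MeA it was 304.1 to 422.6 CPM (median 366.8) in WS birds and 245.8 to 313.8 CPM (median 265.9) in TS birds. The hypothalamic ranges of the morphs coincided, and in MeA they shared only the stretch between the lowest WS and the highest TS bird. Every bird had more BTBD3 in MeA than in HYP. The difference HYP minus MeA of log2 CPM ran from −1.0 to −0.66 (median −0.85) in WS birds and from −0.65 to −0.29 (median −0.40) in TS birds, with no overlap. The fitted contrasts were −0.85 in WS and −0.43 in TS, and they differed by −0.41 (SE 0.053, edgeR adjusted p = 0.0012). The exact two-sided permutation test over all 92378 assignments of the 19 birds gave p = 1.08e-05, the smallest it can give, and 10 of 10 WS birds lay below the TS mean. The permutation p-values of BTBD3, CD109 and ESR1 are not adjusted over the 12245 genes, and these genes were picked for a low p in the same birds, so they describe the separation and add no support to the calls. For each of these genes, the 10 of 10 WS birds below the TS mean follow from the lack of overlap and add nothing to it.

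CD109 encodes a protein tethered to the outer cell membrane, a co-receptor that restrains TGF-beta signalling. Its level in HYP was 8.08 to 25.4 CPM (median 14.9) in WS birds and 8.28 to 13.2 CPM (median 10.3) in TS birds. In MeA it was 6.94 to 30.1 CPM (median 14.4) in WS birds and 3.65 to 6.46 CPM (median 4.88) in TS birds, so that in MeA every WS bird lay above every TS bird. In TS birds HYP held more CD109 than MeA in 9 of 9, with log2 differences of 0.64 to 1.35 (median 0.98). In WS birds the sign varied, with differences of −0.39 to 0.62 (median 0.06), above 0 in 5 of 10. The fitted contrast was 0.06 in WS (edgeR adjusted p = 0.589) and 1.02 in TS (edgeR adjusted p = 1.7e-08). It differed by −0.97 between the morphs (SE 0.14, edgeR adjusted p = 0.00485, exact two-sided permutation p = 4.33e-05), lower in 10 of 10 WS birds than the TS mean. The WS bird with the most CD109 in HYP also had the most in MeA, and the WS bird with the least in HYP had the least in MeA. Without the bird block the difference of −1.01 did not pass (edgeR adjusted p = 0.614).

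ESR1 encodes estrogen receptor alpha, a nuclear receptor through which estradiol acts on gene expression and behaviour. It was far higher in HYP than in MeA in every bird. In HYP it lay at 12.1 to 22 CPM (median 15.8) in WS birds and 10.5 to 22.6 CPM (median 19.1) in TS birds. In MeA it lay at 0.821 to 1.98 CPM (median 1.36) in WS birds and 0.239 to 1.09 CPM (median 0.488) in TS birds, which rests on 137 counts over 10 WS libraries and 49 counts over 9 TS libraries. The difference of log2 CPM was 2.51 to 4.03 (median 3.47) in WS birds and 4.09 to 5.47 (median 4.53) in TS birds, with no overlap, and the count of 2 added to each library before the logarithm makes these values smaller than the fitted ones. The fitted contrasts were 3.49 in WS and 4.98 in TS and differed by −1.49 (SE 0.27, edgeR adjusted p = 0.039, exact two-sided permutation p = 2.17e-05), with 10 of 10 WS birds below the TS mean. The edgeR call did not outlast the loss of single birds: it remained without WS birds Sample_23540, Sample_23604 or Sample_23625 or TS birds Sample_23615 or Sample_23705 (adjusted p of 0.021 to 0.0401). It was lost without each of the other 14, which were Sample_23596, Sample_23599, Sample_23600, Sample_23601, Sample_23602, Sample_23617 and Sample_23710 among WS and Sample_23607, Sample_23608, Sample_23610, Sample_23620, Sample_23623, Sample_23626 and Sample_23711 among TS, with an adjusted p of 0.0573 to 0.14 and a difference of −1.53 to −1.35.

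**Figure D2:**
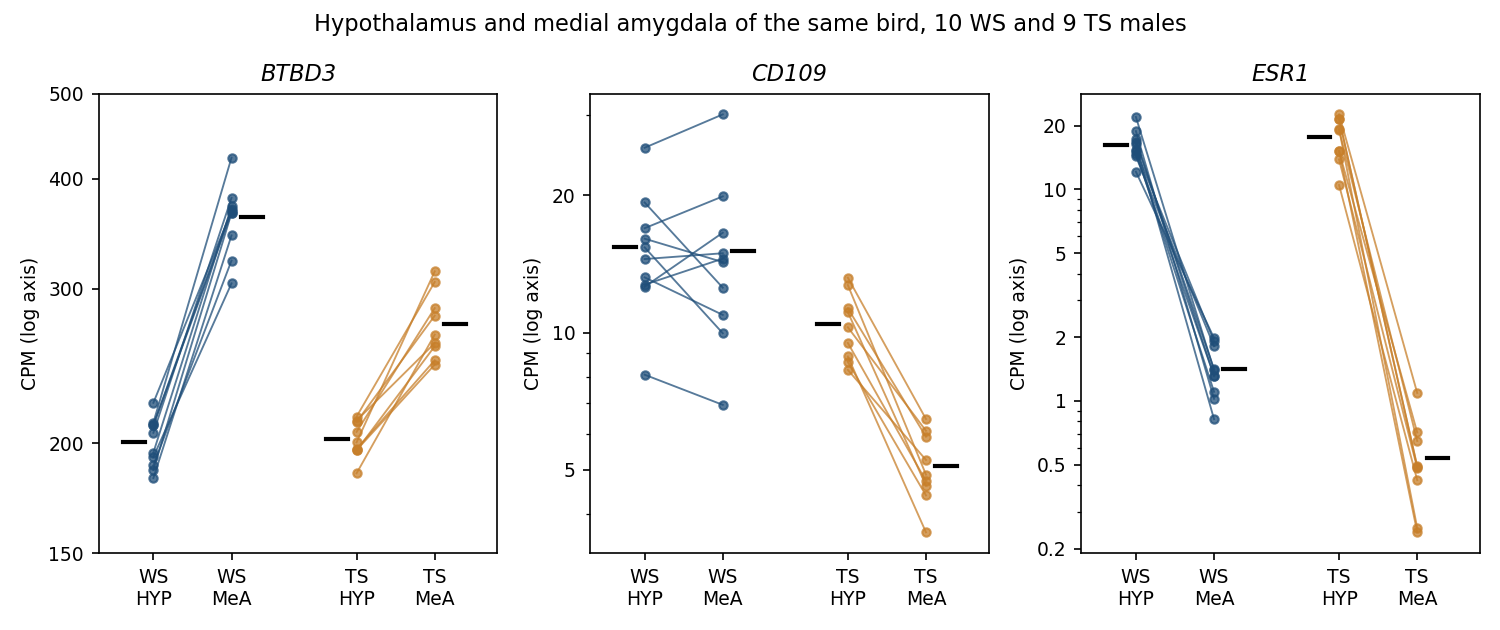
CPM (log axis) of BTBD3, CD109 and ESR1 in HYP and MeA of each of 10 WS and 9 TS birds. Each line joins both regions of a bird, and black bars are group means. For BTBD3 the means in HYP are 200.5 CPM in WS and 202.2 CPM in TS, and in MeA 361.5 CPM in WS and 273.5 CPM in TS. CD109 lines fall toward MeA in 5 of 10 WS birds and in 9 of 9 TS birds, and ESR1 lines end lower in MeA of TS.

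Because age class went with morph, the 3 genes were also looked at within each class. Among SY birds the BTBD3 differences were −0.89 and −0.77 in 2 WS birds and −0.52 to −0.29 in 7 TS birds, and among ASY birds they were −1.0 to −0.66 in 8 WS birds and −0.65 and −0.51 in 2 TS birds. CD109 gave 0.21 and 0.27 in SY birds of WS against 0.74 to 1.35 in SY birds of TS, and −0.39 to 0.62 in ASY birds of WS against 0.64 and 1.23 in ASY birds of TS. ESR1 gave 2.88 and 3.31 in SY birds of WS against 4.09 to 5.47 in SY birds of TS, and 2.51 to 4.03 in ASY birds of WS against 4.16 and 4.39 in ASY birds of TS. Since the morphs did not overlap over all 19 birds for these genes, they could not overlap within a class, and the classes show only the size. The mean of WS minus that of TS was −0.44 in SY and −0.27 in ASY birds for BTBD3, −0.78 in SY and −0.89 in ASY birds for CD109, and −1.67 in SY and −0.81 in ASY birds for ESR1. With age class and its interaction with region in the model, the differences were −0.36 for BTBD3, −0.87 for CD109 and −1.47 for ESR1, and none passed (edgeR adjusted p of 0.0868, 0.225 and 0.311).

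Low p-values made up a larger share of the genes on ZAL2 than of the genes placed elsewhere. Of 889 tested ZAL2 genes 157 had an unadjusted p under 0.05 (17.7%), against 990 of 9988 genes placed elsewhere (9.91%), and at a p under 0.001 there were 18 (2.02%) against 20 (0.2%). Of the 157 genes 95 had a positive and 62 a negative difference. Even so, the contrast in WS followed that in TS across ZAL2 genes with r of 0.965, against 0.981 across genes elsewhere. The median absolute difference was 0.0968 on ZAL2 and 0.0857 elsewhere. This is a description of genes measured in the same birds, without a test between the places. The 1368 tested genes that could not be placed, some of which may lie on ZAL2, are in neither group. Of these, 140 had an unadjusted p under 0.05 (10.2%). WS birds also carry ZAL2m alleles, whose reads may have been aligned and counted at another rate than those of ZAL2, and the effect of this on the WS levels of ZAL2 genes, BTBD3, CD109 and ESR1 included, was not tested.

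The 12 genes with the lowest p in each direction included 14 on ZAL2, 7 with a positive and 7 with a negative difference. Of all 12245 genes tested, 889 were placed on ZAL2 and 1368 could not be placed. The differences of the 24 genes ranged from 0.167 to 1.49 in size on the log2 scale. These genes were picked for a low p, and matching shares over all genes were not computed, so the next counts only describe them. The SE of a gene's morph difference had a median of 0.0910 in MeA and 0.0698 in HYP. For 22 of the 24 the contrast had the same sign in both morphs, and for 23 of them the morph difference was the larger in MeA. The exception was VTA1, a cofactor of the VPS4 enzyme in endosomal sorting. Its log2 CPM differences were −0.24 to 0.08 (median −0.12) in WS birds and −0.52 to −0.27 (median −0.33) in TS birds, with no overlap (difference 0.25, SE 0.051, edgeR adjusted p = 0.137). VTA1 averaged 70.0 CPM in WS and 50.2 CPM in TS in HYP, and 75.4 CPM in WS and 64.4 CPM in TS in MeA.

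The gene nearest the threshold was LOC102067096, an unnamed gene on ZAL2, with a pattern like that of BTBD3. It averaged 34.7 CPM in WS and 35.1 CPM in TS in HYP, and 69.2 CPM in WS and 54.8 CPM in TS in MeA. Its log2 CPM differences were −1.12 to −0.88 (median −0.98) in WS birds and −0.92 to −0.43 (median −0.58) in TS birds, which overlap at the edge. The difference of −0.36 (SE 0.065) had an edgeR adjusted p of 0.0518, and it passed under 9 of 32 alternatives, among them DESeq2, limma and the birds of stage E alone.

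**Figure D3:**
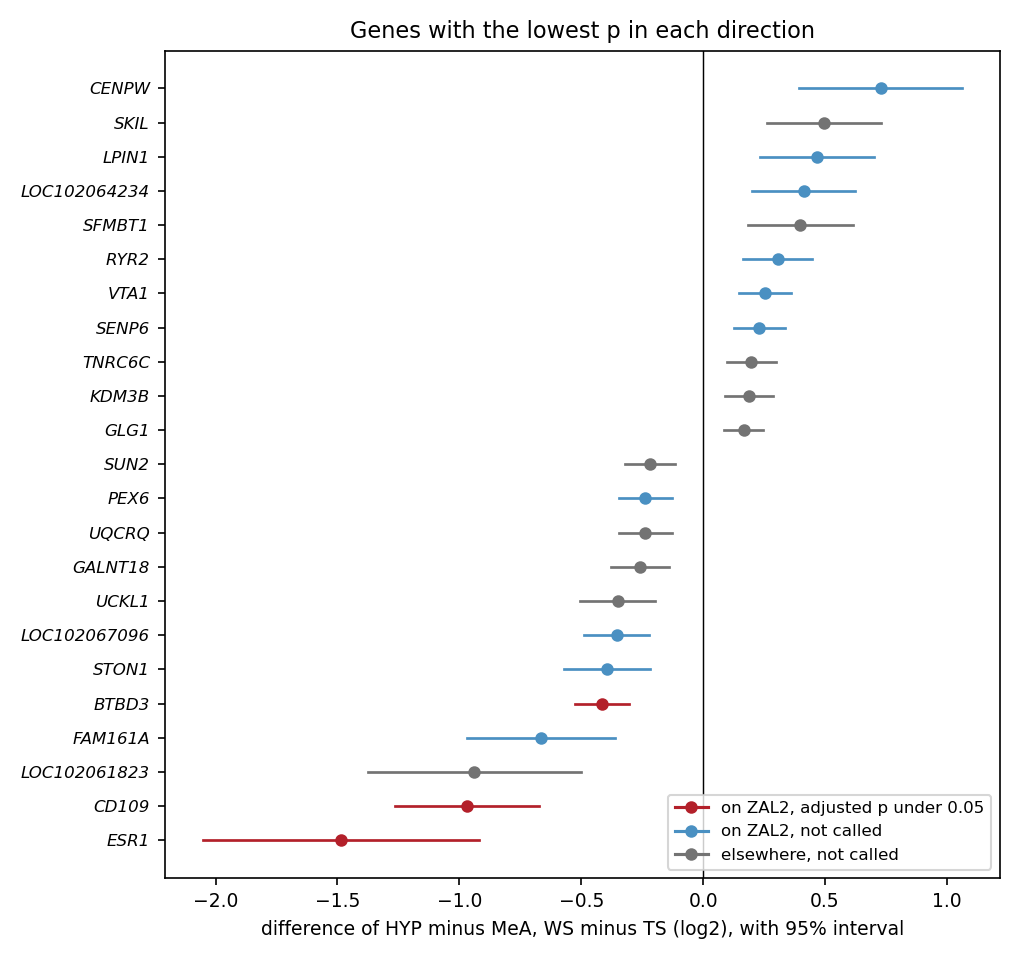
Difference of the regional contrasts (WS minus TS, log2) with its 95% interval for 23 of the 24 genes with the lowest p, 12 in each direction. BTBD3, CD109 and ESR1 (red) passed at an adjusted p under 0.05, and 10 more of those drawn lie on ZAL2 (blue).

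None of the remaining genes of this group passed with edgeR over all birds. DESeq2, which called 16 genes, called STON1, RYR2, SENP6, CENPW, SKIL, UCKL1, PEX6, UQCRQ, SUN2 and GLG1 among them, and VTA1 as well. SKIL passed also with limma-voom and with edgeR without WS bird Sample_23604. In STON1, an adaptor of endocytosis, MeA averaged 69.3 CPM in WS and 47.3 CPM in TS and HYP averaged 37.6 CPM in WS and 34.0 CPM in TS, for a difference of −0.40 (SE 0.085, edgeR adjusted p = 0.15). FAM161A, a protein of cilia, likewise had 5.31 CPM in WS and 3.46 CPM in TS in MeA and 5.43 CPM in WS and 5.64 CPM in TS in HYP (difference −0.66, SE 0.15, edgeR adjusted p = 0.15). RYR2, a calcium release channel, gave 207.4 CPM in WS and 246.5 CPM in TS in MeA, and 154.7 CPM in WS and 148.2 CPM in TS in HYP (difference 0.31, SE 0.068, edgeR adjusted p = 0.15). SENP6, a SUMO protease, and CENPW, a centromere protein, had differences of 0.23 and 0.73, and SKIL, a repressor of SMAD proteins that is not on ZAL2, had 0.50 (edgeR adjusted p of 0.15 for each). UCKL1, a relative of uridine-cytidine kinases, also lies elsewhere, and its log2 CPM differences were −0.65 to −0.08 (median −0.33) in WS birds and −0.17 to 0.17 (median −0.02) in TS birds (difference −0.35, SE 0.075, edgeR adjusted p = 0.15).

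PEX6, an enzyme of peroxisome assembly on ZAL2, had a difference of −0.24, as did UQCRQ, a subunit of respiratory complex III that is not on ZAL2. SUN2, of the inner nuclear membrane, had −0.22, and GALNT18, of the family that starts O-linked sugar chains, had −0.26. LOC102061823, elsewhere, had −0.94. On the positive side GLG1, a Golgi glycoprotein, had 0.17. TNRC6C, of microRNA silencing, had 0.20, KDM3B, a histone demethylase, had 0.19, and SFMBT1, a chromatin repressor, had 0.40. LOC102064234, on ZAL2, had 0.41. None of these passed with edgeR over all birds, with adjusted p-values from 0.15 to 0.305.

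Across all 12245 genes the per-bird differences of the morphs did not overlap for 5 (0.0408%). Of these, 4 lie on ZAL2, namely BTBD3, CD109, ESR1 and VTA1, against 889 placed there of the 12245 genes tested, with 1368 unplaced.

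Of 1807 genes called in the regional contrast of 1 morph alone, 1005 in WS and 802 in TS, the difference passed for 1, CD109. Over all 12245 genes it passed for 3 (0.0245%), so a single gene says little about this group. Called in both morphs with opposite signs were 4 genes, all on ZAL2: LPIN1, MAP3K5, RRM2 and SDC1. Of the 12245 genes tested, 889 were placed there and 1368 could not be placed. LPIN1, a phosphatidate phosphatase of lipid synthesis, had log2 CPM differences of −0.05 to 0.63 (median 0.18) in WS birds, above 0 in 9 of 10, and −0.66 to 0.11 (median −0.26) in TS birds, above 0 in 2 of 9. MAP3K5, a kinase of stress signalling, had −0.03 to 0.32 (median 0.08) in WS birds and −0.32 to 0.03 (median −0.08) in TS birds. RRM2, a subunit of ribonucleotide reductase, had −0.97 to 0.25 (median −0.31) in WS birds and −0.02 to 1.31 (median 0.46) in TS birds. SDC1, a heparan sulfate proteoglycan of the cell surface, had −0.28 to 1.13 (median 0.15) in WS birds and −0.81 to 0.16 (median −0.30) in TS birds. The morphs overlapped for each of the 4, and the differences of 0.47, 0.24, −0.83 and 0.59 did not pass (edgeR adjusted p of 0.236, 0.315, 0.305 and 0.339).

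The same question can be put from the morph side, as the difference of WS from TS inside a region. In HYP 95 of 11930 genes passed (0.796%) and in MeA 61 of 11672 (0.523%), by edgeR with morph alone in the model. The 32 genes called in both regions were 33.7% of the HYP calls and 52.5% of the MeA calls, and the regions share their birds. All 32 had the same sign in both regions, and none passed for a difference of contrasts. Of the 32, 6 had an unadjusted p under 0.05 (10.5% of all genes did). For 29 the 95% interval lay within 1.5-fold (78.9% of all genes). A call in both regions of the same birds itself favours a shared sign. These counts therefore only describe the 32 genes and cannot be read against the shares of all genes. NTPCR, a nucleotide triphosphatase among the 32, averaged 32.8 CPM in WS and 56.1 CPM in TS in HYP, and 25.9 CPM in WS and 41.7 CPM in TS in MeA. Its per-bird differences were 0.15 to 0.55 in WS birds and 0.25 to 0.57 in TS birds (difference −0.09, SE 0.062, edgeR adjusted p = 0.612). EPM2A, which encodes laforin, a phosphatase of glycogen metabolism, had 52.4 CPM in WS and 28.8 CPM in TS in HYP, and 40.5 CPM in WS and 23.7 CPM in TS in MeA (difference 0.08, SE 0.096, edgeR adjusted p = 0.783). For TAF5L, a subunit of histone acetylase complexes, the morph differences were −0.51 in both regions.

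Genes called in 1 region alone were chosen by that call, which itself favours a low p for the difference, so their shares cannot be read against the 10.5% of all genes with an unadjusted p under 0.05. Of 63 genes called between the morphs in HYP alone, none passed for a difference of contrasts and 15 had an unadjusted p under 0.05. Only 57 of these 63 were tested between the morphs in MeA, and 50 of the 57 had the same sign there. Of 29 called in MeA alone, BTBD3, CD109 and ESR1 passed and 17 had an unadjusted p under 0.05. Only 25 of these 29 were tested between the morphs in HYP, and 19 of the 25 had the same sign there. The morph differences behind the 3 genes were −0.01 in HYP and 0.40 in MeA for BTBD3, 0.56 in HYP and 1.56 in MeA for CD109, and −0.12 in HYP and 1.36 in MeA for ESR1, all as fitted log2 fold changes of WS over TS. CEP57L1, a centrosomal protein called in both regions, had 1.17 in HYP and 2.06 in MeA (difference −0.88, SE 0.32, edgeR adjusted p = 0.388), with 63 counts over the 9 MeA libraries of TS.

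**Figure D4:**
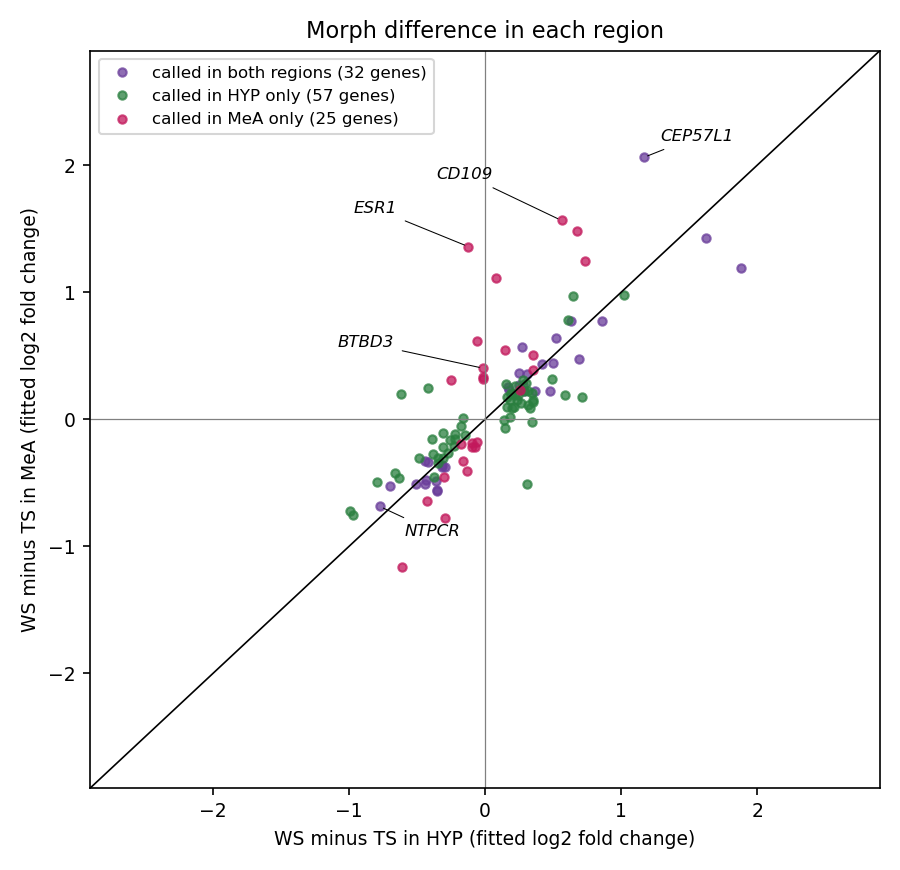
Fitted log2 fold change of WS over TS in MeA (vertical axis) against that in HYP (horizontal axis) for the genes called in either region and tested in both, with the line of equal difference. All 32 genes called in both regions lie in the quadrants of shared sign. BTBD3 and ESR1 lie near 0 in HYP and at 0.40 and 1.36 in MeA.

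Steroid receptors and enzymes of steroid synthesis held 16 tested genes, of which ESR1 passed, and the median difference was −0.06. With ESR1 counted, 3 had an unadjusted p under 0.05 (18.8%, against 10.5% of all genes). The list was chosen with earlier results of these data known, so this share adds no support to the ESR1 call. ESR2, encoding estrogen receptor beta, was higher in HYP than in MeA in both morphs, by 1.27 in WS and 1.56 in TS on the fitted log2 scale (difference −0.29, SE 0.25, edgeR adjusted p = 0.704). PGR, the progesterone receptor, had 5.94 in WS and 6.53 in TS (difference −0.60, SE 0.48), and NR3C1, the glucocorticoid receptor, had 0.83 in WS and 0.55 in TS (difference 0.28, SE 0.12, edgeR adjusted p = 0.426). GPER1, a membrane receptor for estrogens, was lower in HYP by −2.19 in WS and −1.84 in TS (difference −0.35, SE 0.16, edgeR adjusted p = 0.453).

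Genes known to respond to estrogen and cofactors of its receptor held 14 tested genes and none passed, with a median difference of −0.10. GREB1, an estrogen-induced gene on ZAL2, averaged 101.3 CPM in WS and 64.7 CPM in TS in HYP, and 2.30 CPM in WS and 1.16 CPM in TS in MeA. Its log2 CPM differences were 4.77 to 6.15 (median 5.40) in WS birds and 4.70 to 6.21 (median 5.86) in TS birds, which overlap over nearly their whole range (difference −0.29, SE 0.24, edgeR adjusted p = 0.691). STC2, a secreted glycoprotein, had the lowest p of the list, with contrasts of −1.91 in WS and −1.19 in TS (difference −0.72, SE 0.28, edgeR adjusted p = 0.408).

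The TGF-beta pathway held 30 tested genes, of which CD109 passed, and the median difference was −0.02. With CD109 counted, 3 had an unadjusted p under 0.05 (10.0%, near the 10.5% of all genes). The ligands TGFB2 and TGFB3 had differences of −0.02 and −0.15, and the receptors TGFBR1, TGFBR2 and TGFBR3 had −0.02, −0.003 and 0.04, with edgeR adjusted p-values of 0.7 to 0.995. SKIL, the SMAD repressor named above, had the lowest p of this list after CD109, with a difference of 0.50 (SE 0.11, edgeR adjusted p = 0.15). SMAD3, a transducer of the pathway, had 0.24 (edgeR adjusted p = 0.542), and BMPR2, a receptor for bone morphogenetic proteins, had 0.14 (edgeR adjusted p = 0.42). Genes of dendrite growth held 28 tested members, of which BTBD3 passed, and the median difference was 0.06. With BTBD3 counted, 4 had an unadjusted p under 0.05 (14.3%, against 10.5% of all genes). Both lists were chosen with earlier results known, so these shares add no support to the calls. MAP2, of the dendritic cytoskeleton, had contrasts of 1.13 in WS and 0.90 in TS (difference 0.23, SE 0.08, edgeR adjusted p = 0.383), and BDNF, a neurotrophin, had 0.84 in WS and 0.54 in TS (difference 0.31, SE 0.14, edgeR adjusted p = 0.451).

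Receptors and enzymes of GABA and glutamate, the main inhibitory and excitatory transmitters, held 33 tested genes. None passed. An unadjusted p under 0.05 was found for 9 (27.3%, against 10.5% of all genes), all 9 with a positive difference, and the median difference was 0.07. They included GRM4 and GRM8 among metabotropic glutamate receptors, GRIN2A and GRIN2B among NMDA receptor subunits, and GABRA2, GABRA3, GABRB1 and GABRG1 among GABA-A receptor subunits. The differences of these 8 genes ran from 0.24 for GABRA2 to 0.72 for GABRB1 (edgeR adjusted p of 0.41 to 0.466). GABRG1, with contrasts of 3.41 in WS and 2.91 in TS, was the higher in HYP, and GRIN2A, with −1.35 in WS and −1.73 in TS, was the lower in HYP. GAD1 and GAD2, which encode the enzymes that make GABA, had differences of 0.08 and −0.003. The count of 9 was 3 without the replicate block, 3 with age class in the model and 0 among ASY birds alone. This list too was chosen with earlier results of these data known. Its genes were measured in the same birds and are not independent, so the share only describes them.

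Neuropeptides held 14 tested genes, and none passed for the difference. In each morph 11 were called higher in HYP (against 37.4% of all genes in WS and 37.1% in TS) and 1 lower (against 36.4% in WS and 35.1% in TS). CRH, the corticotropin releasing hormone, had contrasts of 1.61 in WS and 1.21 in TS (difference 0.40, SE 0.17, edgeR adjusted p = 0.424). SST, somatostatin, had 0.82 in WS and 1.09 in TS (difference −0.27, SE 0.11, edgeR adjusted p = 0.409). VIP, on ZAL2, was level between the regions, with log2 CPM differences of −0.58 to 0.99 (median 0.07) in WS birds and −0.98 to 0.81 (median −0.33) in TS birds (difference 0.33, SE 0.22, edgeR adjusted p = 0.608). NPVF, the precursor of gonadotropin inhibitory hormone, had contrasts of 8.64 in WS and 8.73 in TS (difference −0.09, SE 0.34), and GAL, galanin, had 6.57 in WS and 6.99 in TS (difference −0.43, SE 0.42). Of 26 neuropeptide receptors none passed and 4 had an unadjusted p under 0.05 (15.4%, against 10.5% of all genes), among them MC3R, a melanocortin receptor, with 5.89 in WS and 5.06 in TS (difference 0.83, SE 0.36, edgeR adjusted p = 0.415).

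Genes of monoamine synthesis, transport and receptors held 31 tested members, with no gene passing and 4 at an unadjusted p under 0.05 (12.9%, against 10.5% of all genes). HTR2A, a serotonin receptor, averaged 6.86 CPM in WS and 6.31 CPM in TS in HYP, and 3.13 CPM in WS and 5.94 CPM in TS in MeA. Its log2 CPM differences were −0.15 to 3.01 (median 1.39) in WS birds and −0.57 to 1.56 (median 0.04) in TS birds (difference 1.08, SE 0.38, edgeR adjusted p = 0.387). HTR1E, another serotonin receptor, on ZAL2, had contrasts of −3.30 in WS and −2.67 in TS (difference −0.63, SE 0.24, edgeR adjusted p = 0.399).

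The lists of regional transcription factors had overlapping contrasts in the morphs. Of 14 tested transcription factors of the hypothalamus, 13 in WS and 12 in TS were called higher in HYP (against 37.4% of all genes in WS and 37.1% in TS), with a mean contrast per bird of 3.75 to 4.30 in WS birds and 3.68 to 4.21 in TS birds. Of 20 factors of the pallium and amygdala, 14 in each morph were lower in HYP (against 36.4% of all genes in WS and 35.1% in TS), with a mean contrast per bird of −1.41 to −1.05 in WS birds and −1.44 to −1.10 in TS birds. No member of either list passed for the difference. Immediate early genes, which mark recent neuronal activity, held 8 tested members and none passed. EGR1, among them, had contrasts of −0.45 in WS and −0.46 in TS (difference 0.02, SE 0.16, edgeR adjusted p = 0.982). None of 16 core clock genes, 13 genes of thyroid hormone and photoperiod, 14 of the interferon response and 22 of mitosis and replication passed, with median differences of 0.04, 0.06, 0.01 and −0.06.

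**Figure D5:**
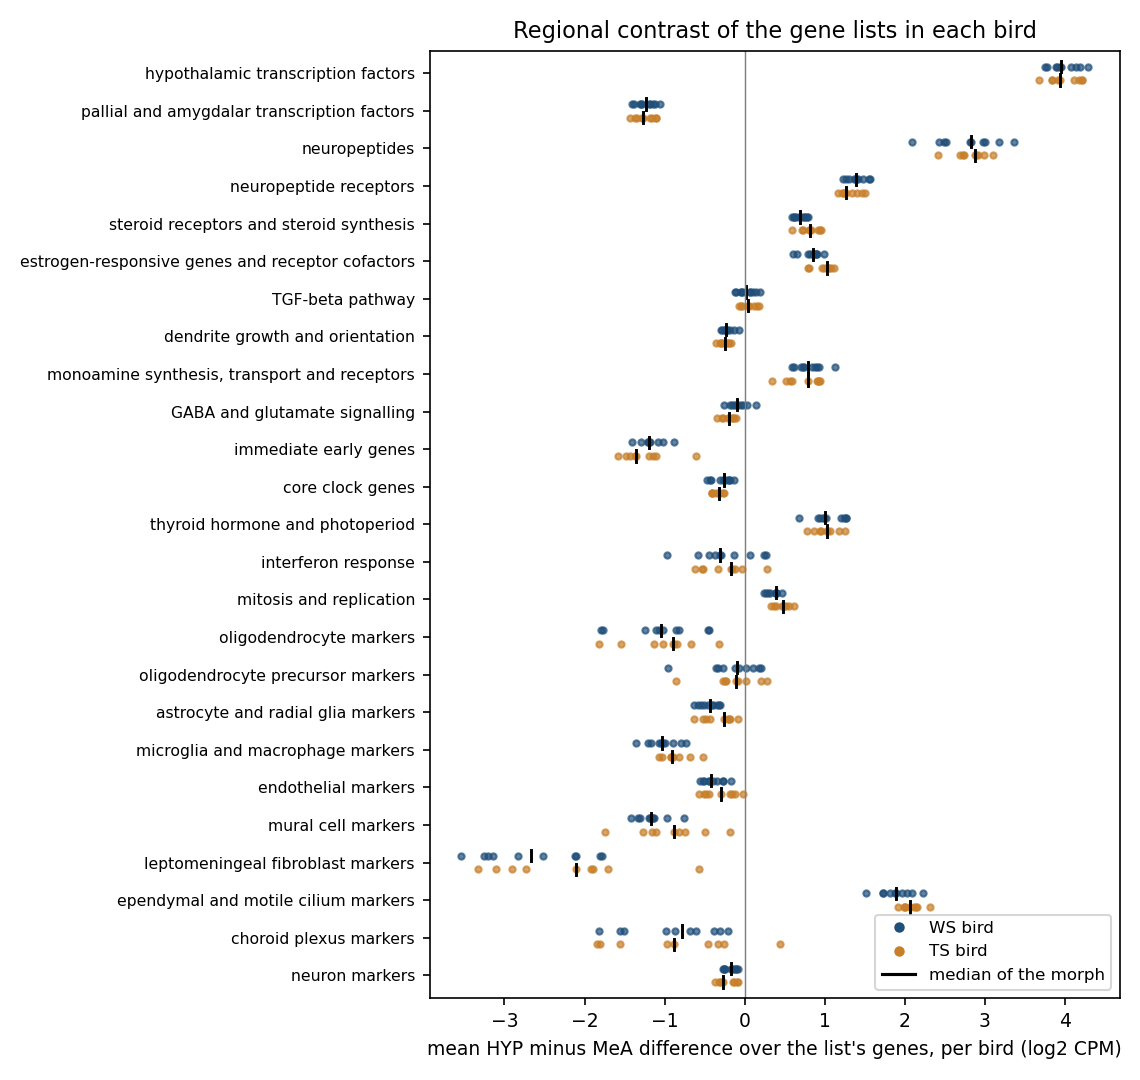
Mean HYP minus MeA difference of log2 CPM over the tested genes of each list, 1 point per bird, WS above TS, with the median of each morph as a black tick. The morphs overlap in every list. Hypothalamic factors lie between 3.68 and 4.30, and leptomeningeal fibroblast markers spread from −3.54 to −0.57.

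Markers of cell types that the punches could hold to different degrees were read in the same way, and none of their 88 tested entries in 10 lists passed for the difference. Since only 0.0245% of all genes passed, a count of none among 88 does not tell whether the mix of cells differed between the morphs. Leptomeningeal fibroblast markers had the most negative median difference, −0.29 over 13 genes, with mean contrasts per bird of −3.54 to −1.78 (median −2.67) in WS birds and −3.34 to −0.57 (median −2.11) in TS birds. Their summed level was 60.2 to 90.2 CPM in WS and 59.9 to 75.8 CPM in TS in HYP, and 191.5 to 622.4 CPM in WS and 106.0 to 644.2 CPM in TS in MeA, so it varied several-fold between MeA punches of the same morph. Without the pair of birds farthest out on the first principal component of the differences, that median was 0.03. The pair was WS bird Sample_23602, the lowest WS bird on this list (−3.54), and TS bird Sample_23615, the highest TS bird (−0.57). Genes of this list also weigh on that component, so the shift toward 0 follows from the choice of birds and tests nothing. COL6A3, a collagen of this list, had contrasts of −4.64 in WS and −3.93 in TS (difference −0.72, SE 0.22, edgeR adjusted p = 0.339). Choroid plexus markers had a median difference of 0.30 over 5 genes, mural cell markers −0.22 over 8, and ependymal markers −0.19 over 13. RSPH1, a protein of motile cilia, led the ependymal list with contrasts of 2.79 in WS and 3.30 in TS (difference −0.51, SE 0.15, edgeR adjusted p = 0.315). Oligodendrocyte markers had a median of 0.04 with summed MeA levels of 1757 to 5349 CPM in WS and 3039 to 5988 CPM in TS. Medians were 0.07 over 3 markers of their precursors, −0.11 over 9 of astrocytes and radial glia, −0.06 over 8 of microglia, −0.07 over 9 of endothelium and 0.05 over 10 of neurons. The part of these cells in the differences of BTBD3, CD109 and ESR1 was not tested.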

How the data were processed

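The authors deposited a table of whole-number read counts per gene and library, not normalized. STAR, Novoalign, HTSeq, SAMtools, GATK and DESeq2 are named, without versions or order, in the submitters' processing notes. The sources used here do not give the build, the strand setting or the handling of reads with several matches. A gene with an antisense, overlapping or near-identical partner may therefore hold reads of that partner. The table's name mentions ZAL2m, and how its sequence entered the alignment is not given. Deposited log2-scale tables normalized within each region were not used, since HYP and MeA were compared, and 2 count columns of a bird that is not among the samples listed here were left out.

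Counts of 15111 genes were fitted with edgeR 4.0.16 in R 4.3.3 (TMM, filterByExpr, quasi-likelihood F test), with a bird block and a region effect per morph, and the threshold was an adjusted p of 0.05. The band number in the titles marks both regions of a bird, so the block pairs libraries of the same animal. WS was set against TS within each region by edgeR with morph alone. SEs are Wald errors from the fit. Per-bird differences used log2 CPM with a prior count of 2 on TMM-scaled totals and were tested by exact permutation. The alternatives used limma 3.58.1 and DESeq2 1.42.0, among other settings. The fits were tested on simulated data, in which known differences were placed only in genes with a high mean count. That test does not bear on genes with few counts or on single calls. Genes were placed by symbol (10990) or gene ID (1583) with the gene table of assembly bZonAlb1.hap1, and 2538 were not matched. ZAL2 stands for the chromosome that held 93 of 93 placed anchor genes, 1022 genes in all, some of which may lie outside the rearrangement.

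Genes named are those called, the 12 with the lowest p in each direction, the 2 lowest of each gene list, extremes of the regional and morph contrasts, genes with opposite regional calls, and fixed genes, with others of a list named for their role. Some genes that these rules name are not reported here. CYP19A1, AVP, OXT, GNRH1 and FOS had no tested row under those names. The comparison, gene lists and fixed genes were chosen with earlier results of these data known. No library differed from another of its group by as little as sampling noise (chi-square over its degrees of freedom: 5.39 to 37.4). Birds are the replicates, and an interval is for the difference of the fitted contrasts, not for the range of single birds.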

Additional observations from a re-analysis of the deposited data

Results flagged for a closer look

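The regional contrasts of the morphs differed, by edgeR's test of the difference itself, for BTBD3 (−0.4146 on the log2 scale), CD109 (−0.9681) and ESR1 (−1.486), whose values stand in the report. No gene had every WS bird on one side of 0 and every TS bird on the other, and 0 of 12245 met that rule. Per-bird differences of 38 named genes were examined for a bird far from the rest of its morph, which made 76 tests, and chance flags about 1 group in 20. For TNRC6C, TS bird Sample_23705 had the highest log2 CPM difference of the 9 TS birds, at 0.6902, with the nearest bird at 0.6028. For PEX6, TS bird Sample_23626 had the lowest, at 0.4244, with the nearest at 0.6269. Neither gene passed for a difference of contrasts with edgeR over all birds, and PEX6 passed with DESeq2.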

How the results depend on the processing

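The 3 calls were 2 to 4 genes when each bird was left out in turn, with BTBD3 and CD109 called in every such fit. The calls came to the same 3 with DESeq2-type size factors or no filter. They came to 4, these 3 among them, with library totals, the robust option or limma on the per-bird differences. With limma-voom 4 genes were called, 2 of them positive, and only BTBD3 of the 3 was kept. Birds of stage E gave 2, BTBD3 and LOC102067096. Without the 2 birds farthest on the first principal component 2 were called, BTBD3 and CD109. Without the replicate block 2 genes were called, BTBD3 and ESR1, and the share of genes with an unadjusted p under 0.05 was 4.93% in place of 10.5%. DESeq2 called 16, of which 7 were positive. With age class in the model, among ASY birds alone and among SY birds alone the count was 0, with 930, 534 and 862 genes at an unadjusted p under 0.05; the last 2 fits hold fewer birds. Regional calls in WS were 5426 in SY birds only, and those in TS 5389 in ASY birds only, again from 2 birds of that morph. Morph calls in HYP were 51 with age class in the model, 5 in ASY birds, 6 in SY birds and 45 in stage E. In MeA they were 18 with age class in the model, 0 in ASY birds, 1 in SY birds, 16 in stage E and 118 with DESeq2. Where fewer birds do not account for these shifts, the cause was not tested. CD109 lost its call also in stage E (adjusted p = 0.278) and in limma-voom (0.0885), and ESR1 in stage E (0.298), in limma-voom (0.169) and without the 2 farthest birds (0.0541). Over 32 alternatives the differences ran from −0.44 to −0.27 for BTBD3, −1.03 to −0.80 for CD109 and −1.93 to −0.97 for ESR1. No called gene changed direction. The permutation tests of the 3 genes were also run with prior counts of 0.5 and 5 and on library totals, with ESR1 at −1.49 and −1.0 for the prior counts and p of at most 0.000119. At 49 counts over 9 libraries, depth limits ESR1 in MeA of TS most.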

Other observations

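The first principal component of the per-bird differences held 19.1% of their variance and ran from −33.2 to 12.8 (median −4.23) in WS birds and from −20.5 to 32.4 (median 6.01) in TS birds (exact two-sided permutation p = 0.16). Genes that weighed most on it included OGN, ITIH2, SLC6A13 and ALDH1A1, known from the meninges, FOLR1 of the choroid plexus and GHRH, the growth hormone releasing hormone, at the positive end. SLC18A2, the vesicular monoamine transporter, HTR2A and TPBG stood at the negative end. The next components held 12.1% and 7.63% of the variance (exact permutation p = 0.302 and 0.535).

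CMPK2, an interferon-induced kinase on ZAL2, had regional contrasts of 0.96 in WS and 1.22 in TS, and morph differences of −0.99 in HYP (edgeR adjusted p = 2.33e-06) and −0.72 in MeA (edgeR adjusted p = 0.166), with a difference of contrasts of −0.26 (SE 0.17, edgeR adjusted p = 0.607). EMCN, an endothelial sialomucin that is not on ZAL2, had morph differences of −1.05 in HYP and −0.75 in MeA, neither of which passed, and contrasts of −0.59 in WS and −0.47 in TS (difference −0.12, SE 0.12, edgeR adjusted p = 0.74).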
